A study of Mus musculus with 18 samples.

Results

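Transcripts of 10 heat shock protein and chaperone genes were followed across regulatory T (Treg) cells from 6 organs of the mouse. The genes were Hspa1a, Hspa1b and Hspa8 of the HSP70 family, the HSP70 partners Hsph1, Dnajb1 and Dnaja1, the HSP90 genes Hsp90aa1 and Hsp90ab1, and the mitochondrial pair Hspd1 and Hspe1. They are 10 of 55487 genes measured. They were chosen by name, with their TPM (transcripts per fixed total, an abundance corrected for transcript length) in these same libraries already known, so their own levels, differences and counts past a threshold are given as a description, and nothing is concluded from a test of them. Treg cells are the Foxp3-expressing CD4+ T cells that restrain immune responses. The libraries came from freshly sorted Treg cells of wild-type, untreated mice, with 3 libraries each from liver, lung, bone marrow, spleen, lymph node and peripheral blood, 18 in all. The study set peripheral blood Treg cells beside those of tissues. All 6 groups share genotype and lack of treatment, and differ by organ. The labels give no strain, age or sex, do not describe the sort or how each organ was taken apart, and do not say whether the 3 libraries of an organ came from separate animals or sorts. Error values and p-values therefore measure the spread between these libraries, which may be technical.

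HSP70 proteins bind unfolded stretches of other proteins and release them in a cycle driven by ATP. J-domain proteins such as Dnajb1 and Dnaja1 bring substrates to HSP70 and speed up its ATP hydrolysis, and Hsph1 (HSP110) exchanges the nucleotide afterwards. Hspa8 is the constitutive cytosolic HSP70, whereas Hspa1a and Hspa1b are the strongly inducible copies. HSP90 takes over late folding steps of kinases and steroid receptors, with an inducible form, Hsp90aa1, and a constitutive form, Hsp90ab1. Hspd1 (HSP60) and its lid Hspe1 (HSP10) fold proteins inside mitochondria. Heat shock factor 1 (HSF1) switches many of these genes on when unfolded protein accumulates, by binding repeats of a short inverted sequence called the heat shock element. In freshly isolated cells, heat shock genes are widely read as stress genes.

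All 8 Treg markers, among them Foxp3, Il2ra and Ctla4, averaged 1 TPM or more in every organ. Their summed level was lowest in blood (1051 to 1071 TPM) and highest in lung (3380 to 3473 TPM). Transcripts of other cell types were also present. The 10 myeloid markers summed to between 37477 and 37665 TPM in bone marrow and between 24566 and 25493 TPM in blood. Their sum was 1521 to 1540 TPM in lung, 543 to 679 TPM in spleen, 140 to 348 TPM in liver and 33.8 to 73.3 TPM in lymph node. The 6 lung epithelium markers summed to between 222.5 and 297.8 TPM in lung, where Scgb1a1 averaged 225 TPM. The highest single library of any other organ was at 14.2 TPM, in spleen. The 7 platelet markers summed to between 2748 and 2868 TPM in blood. The 6 erythroid markers, mostly globins, summed to between 10932 and 11969 TPM in liver, 6314 and 6502 TPM in bone marrow, and 72.7 and 75.4 TPM in lymph node. The 8 hepatocyte markers summed to between 15.6 and 21.1 TPM in liver, where Alb averaged 5.39 TPM and 2 of the 8 were listed at 0 in all 3 libraries. The 6 endothelial and Kupffer cell markers summed to between 134 and 165 TPM in liver, of which Pecam1, also expressed by T cells, made up 96.5 TPM. The other 5 of these markers summed to between 41.3 and 61.5 TPM in liver, and the highest single library of any other organ was at 4.31 TPM, in bone marrow. This sum therefore moved with the liver chaperone levels. The erythroid and hepatocyte sums were likewise highest in liver. Outside liver the hepatocyte sum was at most 3.81 TPM in any library, in blood. The part of these other transcripts in the chaperone levels was not tested. As the samples are bulk RNA, fewer cells of a type and less RNA per cell cannot be told apart.

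Liver stood apart for most of the 10 genes. In 8 of them all 3 liver libraries lay above all 15 libraries of the other organs, and 9 had their highest mean in liver. The shares of all genes that meet these criteria are not given here, so both counts are a description only. The exceptions to the separation were Hspe1 and Hspd1, the mitochondrial pair. Of all 16694 genes tested, 14.0% were called higher in liver than in spleen (limma, adjusted p under 0.05), 9.45% than in lymph node, 17.6% than in lung, 9.36% than in bone marrow and 16.1% than in blood. Of the 10 genes, 8, 9, 10, 9 and 10 were above zero by the same threshold in these 5 comparisons and 0 were below it. As the genes were chosen on these levels, nothing is read from those counts. Blood had the lowest mean for 5 of the 10 genes, lung for 2, and lymph node, spleen and bone marrow for 1 each, again without a share over all genes.

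**Figure D1:**
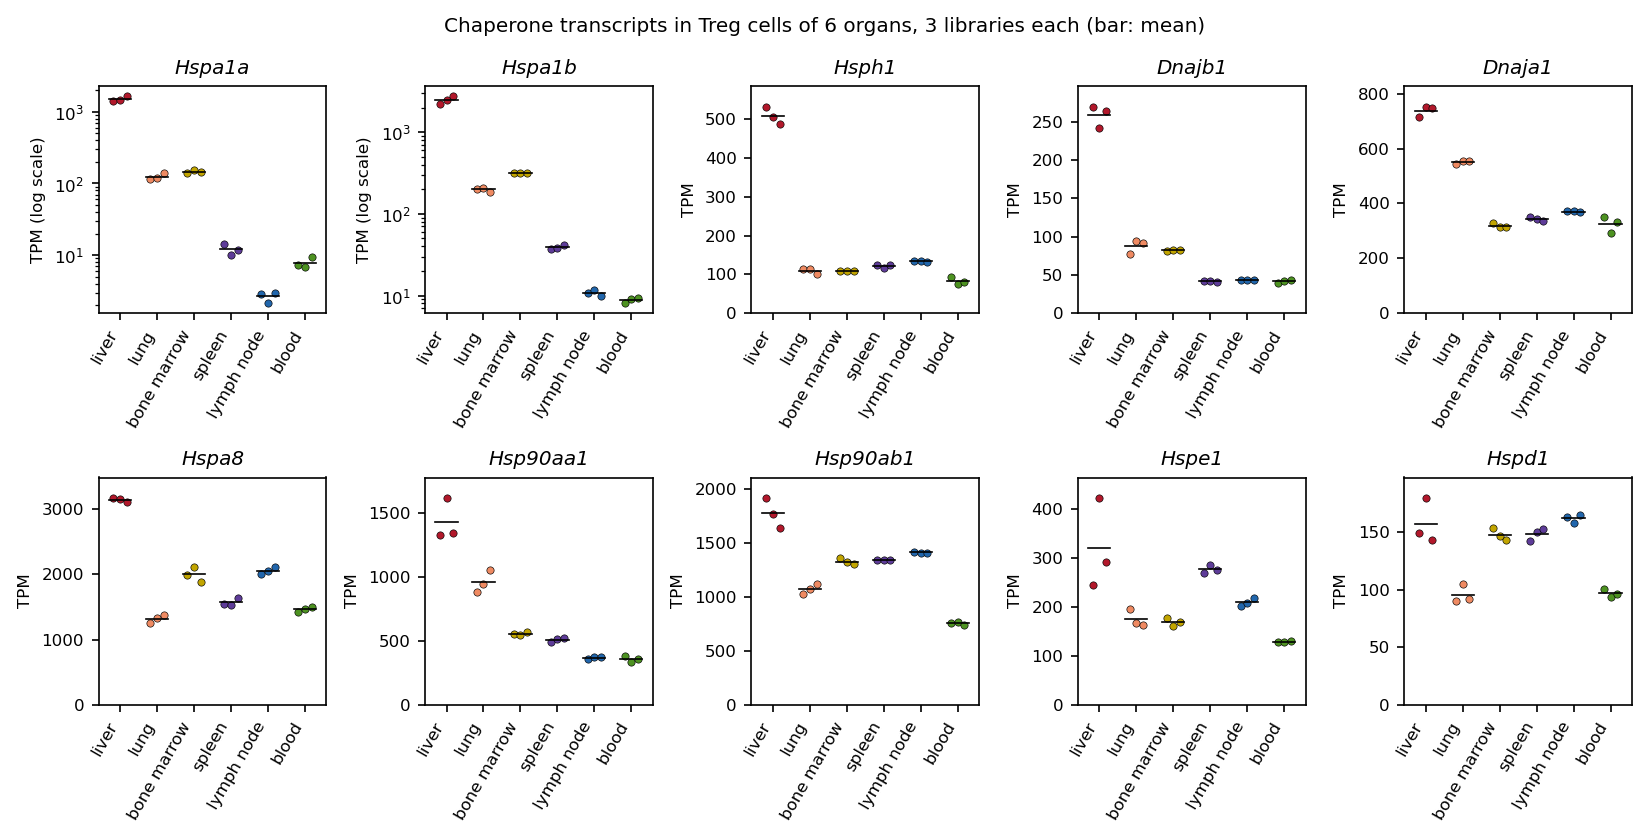
Level of each of the 10 genes in every library, in TPM, by organ; points are libraries and bars are means. The axes of Hspa1a and Hspa1b are logarithmic and the others start at 0. The liver points lie above all others except for Hspe1 and Hspd1.

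Hspa1a and Hspa1b encode nearly the same inducible HSP70 protein and lie next to each other on the minus strand of chromosome 17 (GRCm38, chr17:34969190-34972156 and chr17:34956436-34959238, GENCODE M21), 9951 bases apart. Of the 50-base stretches of the Hspa1a transcript, 58.8% also occur in Hspa1b, so the division of reads between them is uncertain and their sum is given as well. The 150 bases before each start, taken from RefSeq (GRCm38.p6), show how alike the promoters of the 2 copies are. They are printed from 5′ to 3′ on the minus strand, with the letters of an imperfect heat shock element in capitals.
Hspa1a, chr17:34972157-34972306: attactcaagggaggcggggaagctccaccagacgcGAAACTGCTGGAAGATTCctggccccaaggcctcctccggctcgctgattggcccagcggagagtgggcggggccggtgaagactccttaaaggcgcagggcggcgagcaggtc
Hspa1b, chr17:34959239-34959388: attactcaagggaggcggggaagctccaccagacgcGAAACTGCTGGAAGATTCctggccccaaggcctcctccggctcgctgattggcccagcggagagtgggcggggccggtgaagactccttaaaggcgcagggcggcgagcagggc
The stretches differ at 1 of 150 bases, at position -2 counted from the start, and the full windows from 250 bases before to 50 bases after the start differ at 4 of 300.

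Hspa1a was at 1397, 1449 and 1640 TPM in the 3 liver libraries, at 141, 153 and 146 TPM in bone marrow and at 114, 118 and 138 TPM in lung. It was at 14.2, 9.94 and 11.9 TPM in spleen, at 7.22, 6.75 and 9.46 TPM in blood and at 2.90, 2.17 and 2.96 TPM in lymph node. No library of one organ overlapped those of the next in the order liver, bone marrow, lung, spleen, blood and lymph node. Hspa1b was at 2223, 2445 and 2743 TPM in liver, at 312, 315 and 318 TPM in bone marrow and at 202, 206 and 187 TPM in lung. It was at 37.0, 38.7 and 41.9 TPM in spleen, at 10.9, 11.7 and 9.99 TPM in lymph node and at 8.15, 9.03 and 9.25 TPM in blood. The order was the same except that lymph node stood above blood, again without overlap. The inducible HSP70 genes thus spanned 559-fold between the mean of the highest and that of the lowest organ for Hspa1a and 280-fold for Hspa1b, far more than any of the other 8 genes.

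Summed, Hspa1a and Hspa1b reached 3966 ± 387 TPM in liver (mean ± SD, n = 3 here and below). They stood at 461 ± 7.85 TPM in bone marrow, 322 ± 4.69 TPM in lung, 51.2 ± 2.63 TPM in spleen, 16.6 ± 1.82 TPM in blood and 13.5 ± 0.48 TPM in lymph node. Liver was 8.60 times bone marrow, the next organ, and 294 times lymph node. On the log2(TPM + 1) scale, liver exceeded bone marrow by 3.10, lung by 3.61, spleen by 6.24, blood by 7.82 and lymph node by 8.09, each with a standard error (SE) of 0.08. The 6 organs fell into a high level in liver, a middle level in bone marrow and lung, and low levels in spleen, blood and lymph node. Hspa1a made up 46.8% ± 3.90 of the pair in blood, 38.3% ± 3.64 in lung, 37.7% ± 0.74 in liver, 31.7% ± 0.83 in bone marrow, 23.4% ± 3.84 in spleen and 19.9% ± 3.73 in lymph node. Hspa1b was the more abundant copy by mean in every organ.

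Hspa8, the constitutive HSP70, is on the plus strand of chromosome 9 (chr9:40800984-40810087). It was at 3174, 3160 and 3108 TPM in liver, at 2007, 2052 and 2109 TPM in lymph node and at 1999, 2119 and 1886 TPM in bone marrow. It was at 1540, 1537 and 1645 TPM in spleen, at 1418, 1467 and 1503 TPM in blood and at 1250, 1333 and 1373 TPM in lung. Lymph node and bone marrow overlapped, and the other neighbours in this order did not. Its range between organ means was 2.39-fold, and liver was 1.53 times lymph node. Lung, behind liver and bone marrow for the inducible copies, thus had the lowest Hspa8. Of its 50-base stretches, 38.6% occur in another annotated gene, mostly processed pseudogenes.

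Hspa1a and Hspa1b made up 53.3%, 55.2% and 58.5% of the summed TPM of the 3 HSP70 genes in the liver libraries. Their mean share was 19.6% ± 0.53 in lung and 18.8% ± 0.88 in bone marrow, where single libraries overlapped. It was 3.15% ± 0.08 in spleen, 1.12% ± 0.09 in blood and 0.65% ± 0.04 in lymph node. A share within a library does not depend on how the library is scaled. The liver was the only organ of the 6 in which inducible HSP70 transcripts outnumbered Hspa8.

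Hsph1, the HSP110 exchange factor, is on the minus strand of chromosome 5 (chr5:149614287-149636376). It was at 532, 505 and 488 TPM in liver, and its other 15 libraries lay between 75.9 and 136 TPM. Means outside liver were 134 ± 2.16 TPM in lymph node, 122 ± 4.80 TPM in spleen, 110 ± 7.29 TPM in lung, 108 ± 0.54 TPM in bone marrow and 82.6 ± 8.82 TPM in blood. Liver was 3.78 times lymph node, the next organ, and lung and bone marrow overlapped. Unlike the inducible HSP70 genes, Hsph1 was thus no higher in bone marrow and lung than in spleen and lymph node. No 50-base stretch of its transcripts occurs in another annotated gene.

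Dnajb1, a J-domain partner with its own strong heat inducibility, is on the plus strand of chromosome 8 (chr8:83608193-83612653). It was at 270, 242 and 265 TPM in liver, at 77.4, 94.4 and 91.2 TPM in lung and at 81.4, 82.5 and 82.3 TPM in bone marrow. It was at 41.5, 41.3 and 41.3 TPM in spleen, at 43.5, 43.2 and 43.4 TPM in lymph node and at 39.8, 41.8 and 43.4 TPM in blood. Its levels formed the same 3 tiers as the inducible HSP70 genes, with overlap inside the middle and the low tier. The 3 organs of the low tier all lay within 39.8 to 43.5 TPM, and liver was 6.26 times spleen, the lowest. Dnaja1, a farnesylated J-domain protein of the cytosol, is on the plus strand of chromosome 4 (chr4:40722150-40737149). It was at 714, 753 and 749 TPM in liver and at 543, 556 and 555 TPM in lung, and the other 12 libraries lay between 292 and 371 TPM. For Dnaja1 only lung stood near liver, which was 1.34 times as high, while bone marrow, spleen and blood overlapped. The ratio of Dnaja1 to Dnajb1 was 2.86 in liver and 3.88 in bone marrow, against 6.32 in lung, 7.82 in blood, 8.28 in spleen and 8.52 in lymph node.

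Hsp90aa1, the inducible HSP90, is on the minus strand of chromosome 12 (chr12:110690605-110702728). It was at 1324, 1616 and 1340 TPM in liver and at 880, 947 and 1057 TPM in lung. It was at 556, 546 and 566 TPM in bone marrow, at 487, 517 and 521 TPM in spleen, at 355, 376 and 371 TPM in lymph node and at 379, 334 and 356 TPM in blood. Only lymph node and blood overlapped, and liver was 1.48 times lung and 4.01 times blood. Of its 50-base stretches, 47.5% occur in another annotated gene, mostly the pseudogene Gm12346. Hsp90ab1, the constitutive HSP90, is on the minus strand of chromosome 17 (chr17:45567775-45573271). It was at 1913, 1766 and 1635 TPM in liver and at 758, 767 and 734 TPM in blood, the lowest organ. Lymph node (1411 ± 3.00 TPM), spleen (1339 ± 2.00 TPM), bone marrow (1326 ± 28.1 TPM) and lung (1071 ± 47.7 TPM) lay between them, with spleen and bone marrow overlapping.

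Hsp90aa1 took a larger share of the HSP90 pair in lung and liver than elsewhere. The share was 47.3% ± 1.21 in lung and 44.6% ± 3.47 in liver, where the 3 libraries overlapped with those of lung. It was 32.1% ± 1.60 in blood, 29.5% ± 0.68 in bone marrow, 27.5% ± 0.74 in spleen and 20.6% ± 0.53 in lymph node. Bone marrow, which was second to liver for the inducible HSP70 genes, thus had an Hsp90aa1 share close to that of spleen. The summed TPM of the 3 HSP70 genes over that of the 2 HSP90 genes was 2.23 in liver, 1.33 in blood, 1.31 in bone marrow, 1.16 in lymph node, 0.88 in spleen and 0.81 in lung.

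**Figure D2:**
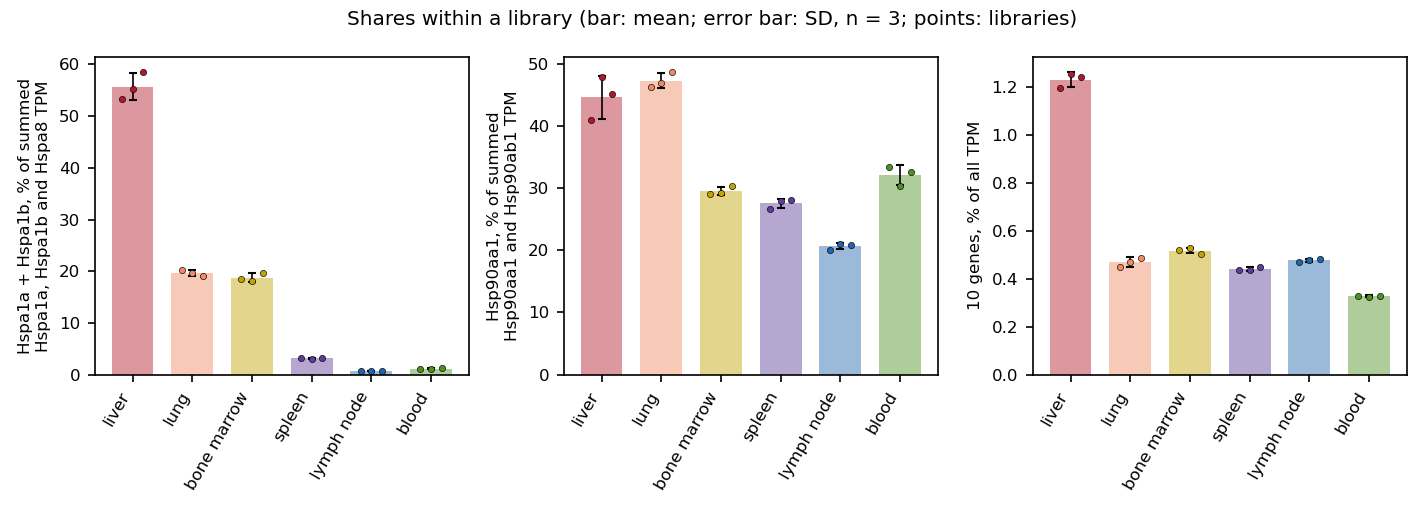
Share of Hspa1a and Hspa1b in the HSP70 genes, of Hsp90aa1 in the HSP90 genes, and of the 10 genes in all TPM, in percent by organ; bars are means, error bars SD (n = 3) and points libraries. Inducible HSP70 made up 55.7% in liver against 0.65% in lymph node, while the Hsp90aa1 share was as high in lung as in liver.

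Hspd1 and Hspe1 are transcribed away from each other on chromosome 1 (chr1:55077835-55088243, minus strand, and chr1:55088132-55091307, plus strand), and their annotated 5′ ends overlap on opposite strands. Hspe1 was at 245, 422 and 291 TPM in liver and at 269, 286 and 274 TPM in spleen, so the liver libraries spread on both sides of spleen. It was at 202, 207 and 218 TPM in lymph node, at 195, 166 and 162 TPM in lung, at 177, 161 and 169 TPM in bone marrow and at 127, 127 and 131 TPM in blood. The SD in liver was 92.0 TPM on a mean of 319 TPM. Hspd1 was at 149, 179 and 143 TPM in liver, at 163, 158 and 165 TPM in lymph node, at 142, 150 and 152 TPM in spleen and at 154, 147 and 143 TPM in bone marrow. Liver overlapped each of the other 3 organs, and spleen overlapped bone marrow, while all lymph node libraries lay above those of spleen and bone marrow. Blood (97.0 ± 3.61 TPM) and lung (95.6 ± 8.28 TPM) lay below these 4 organs and overlapped each other. Liver replicate 2 was the highest liver library for Hspe1, Hspd1 and Hsp90aa1. The ratio of Hspe1 to Hspd1 was highest in liver (2.01 ± 0.35) and lowest in bone marrow (1.14).

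The heat shock element was searched in RefSeq promoter windows from 250 bases before to 50 bases after each start, on both strands. It was written as 3 alternating units, GAANNTTCNNGAA or TTCNNGAANNTTC, where N is any base. The windows of 7 of the 10 genes were in the table. A gene was counted if any of its windows matched. Exact matches were found for 3 of these 7 genes, Hspd1, Hspe1 and Hsph1, against 0.662% of all 27025 genes with a window. With at most 1 mismatch, a rule added after the exact matches had been seen, 6 of 7 matched against 8.15% of genes, and Dnajb1 had no match. The shorter 2-unit form, GAANNTTC or TTCNNGAA, was also found for 6 of the 7 genes, against 17% of genes. The exact matches, merged where they overlap, and the Dnaja1 match with 1 mismatch are printed below from 5′ to 3′ on the strand of the gene, with the units and their spacers in capitals, because they separate the genes with an exact element from one without. Further matches with 1 mismatch in the Hsph1 window are not printed.
Hspe1, chr1:55088057-55088078, plus strand: cgTTCTAGAACCTTCCGGAAgg
Hspd1, chr1:55088057-55088078, minus strand: ccTTCCGGAAGGTTCTAGAAcg
Hsph1, chr5:149636286-149636302, minus strand: gaTTCTGGAAAGTTCtc
Dnaja1, chr4:40722337-40722353, plus strand: gcCTCTAGAAAATTCta
The Hspe1 and Hspd1 lines are the same site read on opposite strands, between the RefSeq starts of the 2 windows that held it. By the GENCODE positions given above, the site lies inside the annotated Hspd1 gene. The exact element was thus in the windows of Hsph1 and of both genes whose liver libraries overlapped those of other organs, and the HSP70 pair, with the widest range, had an element with a mismatch. A match describes letters in the window and not binding.

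Together the 10 genes made up 12293 ± 313 TPM in liver, 1.23% of all TPM. They made up 5169 ± 119 TPM in bone marrow, 4766 ± 61.3 TPM in lymph node, 4692 ± 193 TPM in lung, 4402 ± 73.0 TPM in spleen and 3263 ± 42.0 TPM in blood, or between 0.326% and 0.517% of all TPM. On the log2(TPM + 1) scale, the median difference of the 10 genes between liver and another organ was 1.29 for spleen, 1.45 for lymph node, 1.04 for lung, 1.28 for bone marrow and 1.63 for blood. The median of all 16694 genes in the same comparisons was -0.06, -0.19, 0.00, -0.21 and -0.07. After the inducible HSP70 genes, the widest differences were those of Dnajb1 against spleen and lymph node and those of Hsph1 against lung and bone marrow. Dnajb1 had 2.61 against spleen, 2.55 against lymph node, 1.55 against lung, 1.64 against bone marrow and 2.61 against blood (SE 0.08). Those of Hsph1 were 2.05, 1.91, 2.20, 2.22 and 2.61 in the same order (SE 0.07). For Hspd1 they were 0.08, -0.05, 0.71, 0.08 and 0.69 (SE 0.08), so that Hspd1 differed from the other genes mainly by having no higher level in liver than in spleen, lymph node or bone marrow.

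On the scale of all RNA, peripheral blood was at the low end. Of all genes tested, 20.1% were called higher and 15.3% lower in blood than in spleen, 16.4% and 21.0% than in lymph node, 26.4% and 17.3% than in lung, and 13.0% and 18.8% than in bone marrow. Of the 10 genes, 0, 1, 1 and 0 were above zero by that threshold and 7, 7, 8 and 9 below it, which is again a description. Summed Hspa1a and Hspa1b in blood were lower than in bone marrow and lung, with differences of -4.72 and -4.20 on the log2 scale, and the difference from lymph node was 0.28. The direction of the smaller blood differences depended on the scale. When libraries were scaled to 20 general T cell genes instead of all RNA, the median of all genes moved by 0.74 for blood against spleen, 0.87 against lymph node, 0.57 against lung and 0.41 against bone marrow. On that scale 8 of the 10 genes were above zero in blood against spleen, 10 against lymph node, 5 against lung and 4 against bone marrow, where the deposited scale gave 1, 1, 2 and 1. The low blood levels relative to spleen and lymph node thus turned with the scale for most of the genes. For the inducible pair, the T cell scale gave Hspa1a differences of 0.27 from spleen, 2.19 from lymph node, -3.22 from lung and -3.63 from bone marrow. It gave Hspa1b differences of -1.18, 0.74, -3.74 and -4.56 in the same order, so both copies stayed lower in blood than in lung and bone marrow. Blood libraries also held the platelet and myeloid transcripts given above.

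To set the 10 genes beside the machinery they work with, 87 other chaperone network genes in 6 lists were taken from general knowledge. Earlier results of these data were known when the lists were made, so calls within them are not independent support. Of the 87 genes, 84 averaged 1 TPM or more in some organ and were tested. Of these 84 genes, 70 differed among the 6 organs (limma F test, adjusted p under 0.05), against 68.0% of all genes tested. In liver, 19 of the 84 genes were higher and 24 lower than in spleen, 18 and 26 than in lymph node, and 21 and 16 than in lung. Against bone marrow most calls were lower, with 12 higher and 26 lower. Against blood most were higher, with 26 higher and 6 lower. The shares of all genes tested that were higher in liver were 14.0% against spleen, 9.45% against lymph node, 17.6% against lung, 9.36% against bone marrow and 16.1% against blood. Of all genes tested, 17.3% were lower in liver than in spleen, 21.6% than in lymph node, 17.3% than in lung, 25.1% than in bone marrow and 23.3% than in blood. The median difference of the 84 genes was -0.21 against spleen, -0.22 against lymph node, 0.10 against lung, -0.14 against bone marrow and 0.19 against blood. Of the 84 genes, 14 had their highest mean in liver and 14 in lung. The shares of all genes with their highest mean in these organs are not given here, so both counts are a description only. In blood, 8 of the 84 were higher and 35 lower than in spleen, 7 and 35 than in lymph node, 12 and 25 than in lung, and 4 and 35 than in bone marrow.

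The split of the network between higher and lower depended on the scale in several comparisons. Scaled to the 20 T cell genes, 20 genes were higher and 18 lower in liver than in spleen, 23 and 10 than in lymph node, 14 and 25 than in lung, 4 and 50 than in bone marrow, and 3 and 65 than in blood. For blood the same scale gave 56 higher and 1 lower against spleen, 67 and 0 against lymph node, 54 and 8 against lung, and 27 and 7 against bone marrow. With trimmed-mean (TMM) factors, 22 were higher and 12 lower in liver than in lymph node, and 26 and 10 than in bone marrow. For blood these factors gave 11 and 22 against lymph node and 9 and 21 against bone marrow. With abundant RNA classes removed, 15 were higher and 35 lower in liver than in spleen, and 23 and 12 than in bone marrow. On each of these scales, Hspa1a, Hspa1b, Hsph1, Dnajb1, Dnaja1, Hspa8, Hsp90aa1 and Hspe1 kept a positive difference between liver and each of the other 5 organs, as did Hsp90ab1, whose difference from bone marrow was 0.09 on the T cell scale. Hspd1 turned to -0.24 against bone marrow and -0.15 against blood on the T cell scale.

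The list nearest to the 10 genes was that of 16 other heat-inducible genes, of which 15 were tested and 14 differed among organs. In liver 8 of the 15 rose and 4 fell against spleen, 8 and 3 against lymph node, 5 and 2 against lung, 4 and 3 against bone marrow, and 7 and 0 against blood (8 and 1 at an unadjusted p under 0.05). On the T cell scale the split was 8 and 1 against lymph node, 4 and 3 against lung, 3 and 7 against bone marrow and 2 and 9 against blood. TMM factors gave 8 and 1 against lymph node and 6 and 1 against bone marrow, and removal of abundant RNA gave 5 and 1 against bone marrow. Bag3, a co-chaperone that couples HSP70 to autophagy, was at 27.2 TPM in liver and 46.5 TPM in lung, and at most 16.4 TPM elsewhere. It was higher in liver than in spleen by 1.06 ± 0.14 (log2 difference ± SE, limma adjusted p = 2.5e-05) and lower than in lung by 0.77 ± 0.14 (adjusted p = 4.2e-04). Zfand2a, a proteasome adaptor, had the same order of the leading organs, with 35.6 TPM in lung and 18.9 TPM in liver. Hspb1, a small heat shock protein, was at 10.5 ± 8.86 TPM in liver, a spread nearly as large as the mean, and at 0.48 TPM in blood.

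Among 26 cytosolic co-chaperones, 23 differed among organs. In liver 6 rose and 5 fell against spleen, 5 and 9 against lymph node, 7 and 8 against lung, 4 and 7 against bone marrow, and 10 and 2 against blood. On the T cell scale the splits were 7 and 3, 8 and 3, 5 and 9, 0 and 16, and 1 and 21 in this order. TMM factors gave 7 and 3 against lymph node and 9 and 5 against bone marrow. Removal of abundant RNA gave 5 and 9 against spleen and 9 and 5 against bone marrow. Of the genes with the widest range in this list, 3 had their highest level in lung. The J-domain protein Dnajb6 was at 292 TPM in lung, 153 TPM in liver and at most 116 TPM elsewhere. The HSP110 relative Hspa4 was at 262 TPM in lung and 147 TPM in liver. The myosin chaperone Unc45a was at 148 TPM in lung and 63.4 TPM in liver. All 3 were lower in liver than in lung, by 0.92, 0.84 and 1.20 on the log2 scale (adjusted p = 5.1e-07, 3.3e-05 and 6.1e-06). Dnaja4, another J-domain protein, was at 26.7 TPM in liver, 18.2 TPM in bone marrow and 7.76 TPM in blood, and rose in liver against blood by 1.64 ± 0.23 (adjusted p = 2.3e-05).

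The folding machines for newly made proteins did not have the liver level of the HSP70 genes. Of 14 subunits of the cytosolic chaperonin TRiC and of prefoldin, 11 differed among organs. In liver 1 rose and 5 fell against spleen, 1 and 3 against lymph node, 3 and 0 against lung, 2 and 2 against bone marrow, and 6 and 0 against blood. Against lung and blood, 0 were lower at an unadjusted p under 0.05 too, and the T cell scale gave 2 higher and 2 lower against lymph node, 1 and 2 against lung, 0 and 6 against bone marrow and 0 and 10 against blood. TMM factors gave 2 and 2 against lymph node and 5 and 0 against bone marrow, as did removal of abundant RNA for bone marrow. The TRiC subunit Cct3 was at 299 TPM in spleen, 272 TPM in lymph node, 204 TPM in bone marrow, 156 TPM in liver, 140 TPM in blood and 130 TPM in lung, and fell in liver against spleen by 0.95 ± 0.13 (adjusted p = 3.1e-05). Cct6a was at 191 TPM in spleen, 135 TPM in liver and 82.4 TPM in blood. The prefoldin subunits Pfdn1 and Pfdn2 were at their lowest in blood, at 18.6 and 64.8 TPM.

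Of 10 other mitochondrial chaperones and proteases, 6 differed among organs. In liver 0 rose and 3 fell against spleen, 0 and 4 against lymph node, 1 and 3 against lung, 0 and 4 against bone marrow, and 0 and 0 against blood. In the last of these limma comparisons 1 gene was higher and 0 lower at an unadjusted p under 0.05, and the T cell scale gave 0 and 9. That scale gave 0 and 4 against lung, and TMM factors gave 0 and 3 against lung and 2 and 1 against bone marrow. At that unadjusted p, 0 genes were higher in liver than in spleen, lymph node or bone marrow. The mitochondrial HSP90 gene Trap1 was at 40.4 TPM in liver, 60.1 TPM in spleen and 69.9 TPM in lymph node, and fell in liver against spleen by 0.58 ± 0.12 (adjusted p = 0.0015). Dnaja3, a mitochondrial J-domain protein, was at 15.2 TPM in liver and 24.1 TPM in spleen. Clpp, a protease subunit, was at 29.8 TPM in liver and 37.4 TPM in spleen, and Hscb, an iron-sulfur cluster co-chaperone, at 35.1 and 39.3 TPM.

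Chaperones of the endoplasmic reticulum, which answer to the unfolded protein response more than to HSF1, were split. Of 15 genes 13 differed among organs, and in liver 3 rose and 6 fell against spleen, 3 and 5 against lymph node, 4 and 2 against lung, 1 and 9 against bone marrow, and 2 and 3 against blood. On the T cell scale the split was 4 and 1 against lymph node, 3 and 6 against lung, 0 and 12 against bone marrow and 0 and 14 against blood. TMM factors gave 4 and 3 against lymph node and 3 and 3 against bone marrow. Removal of abundant RNA gave 2 and 10 against spleen, 3 and 4 against bone marrow and 4 and 2 against blood. Dnajb9, a J-domain cofactor of the unfolded protein response, was at 59.8 TPM in lung, 44.7 TPM in blood, 34.9 TPM in liver, 32.0 TPM in bone marrow and 11.3 TPM in both spleen and lymph node. The disulfide isomerase Pdia4 went the other way, at 98.1 TPM in lymph node, 58.2 TPM in liver and 36.9 TPM in lung. Dnajc3 was likewise lowest in lung, at 22.9 TPM against 50.8 TPM in lymph node, and Sdf2l1 was at 11.5 TPM in lung and 39.1 TPM in bone marrow.

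Transcripts of the heat shock factors spanned narrower ranges than those of the inducible HSP70 genes. Hsf1, the main regulator of the heat shock response, was at 57.8 ± 7.89 TPM in liver, 67.5 ± 6.10 TPM in spleen and 74.8 ± 3.95 TPM in lymph node, and fell in liver against lymph node by 0.37 ± 0.13 (adjusted p = 0.0338). That call was lost on the T cell scale (-0.12), with TMM factors (-0.16), with library weights (-0.38) and with no filter. It was also lost without lymph node replicate 1 (-0.34) or 3 (-0.36) or liver replicate 3 (-0.26). Hsf2 was highest in liver at 23.7 ± 2.27 TPM, against 8.98 ± 0.90 TPM in spleen, and rose there by 1.31 ± 0.18 (adjusted p = 5.84e-05). It was also higher in liver than in lymph node by 0.65, lung by 0.85, bone marrow by 1.07 and blood by 0.54, the last of which turned to -0.26 on the T cell scale. Hsbp1, which binds HSF1 and holds it back, was lowest in liver at 58.3 ± 6.57 TPM and fell there against all 5 other organs on the scale of all RNA, by 0.76 against spleen, 0.68 against lymph node and 0.58 against blood. Against bone marrow its difference of -0.32 was no longer called with TMM factors (-0.15) or with abundant RNA removed (-0.19). Against lung its difference of -0.23 was no longer called with library weights (-0.24), nor without liver replicate 2 (-0.17) or 3 (-0.21) or lung replicate 1 (-0.21) or 2 (-0.24). Hsf4 was at most at 2.57 TPM, and Hsf3 and Hsf5 did not pass the filter.

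**Figure D3:**
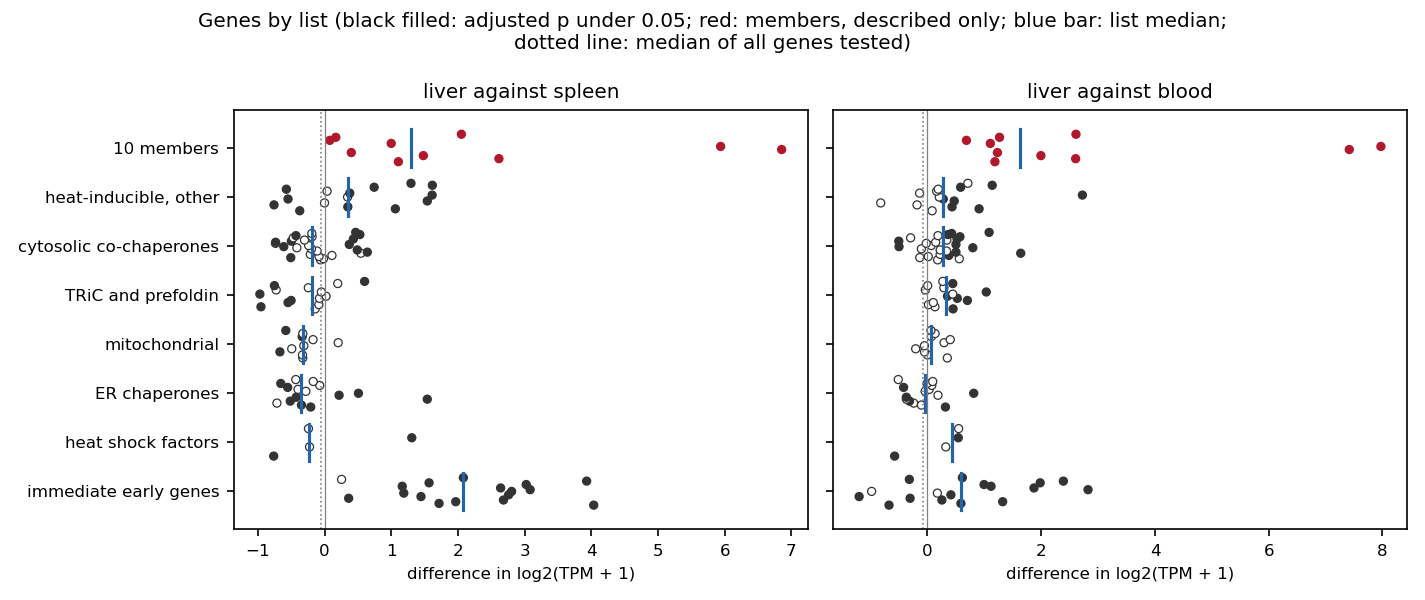
Difference in log2(TPM + 1) of each gene between liver and spleen (left) and between liver and blood (right), by list; each point is a gene, red for the 10 members and, for the other lists, filled where the limma adjusted p is under 0.05. Blue bars are list medians and the dotted line is the median of all genes tested. The 10 members have a median of 1.29 and 1.63, and the points of the other chaperone lists lie on both sides of zero, while the immediate early genes have a median of 2.08 and 0.59.

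Immediate early genes, which are transcribed within minutes of a stimulus without new protein synthesis, were measured beside the heat shock genes as a second set of fast genes. All 17 differed among organs. In liver 16 rose and 0 fell against both spleen and lymph node, 11 and 3 against lung, 6 and 7 against bone marrow, and 11 and 4 against blood. At an unadjusted p under 0.05, 0 fell against spleen or lymph node. On the T cell scale the splits were 17 and 0, 16 and 0, 10 and 4, 5 and 10, and 6 and 10 in the same order. TMM factors gave 8 and 6 against bone marrow, and removal of abundant RNA gave 12 and 1 against blood. Their summed level was 11368 to 12251 TPM in liver, 10005 to 10134 TPM in bone marrow, 6621 to 7177 TPM in lung, 5209 to 5414 TPM in blood, 2279 to 2306 TPM in spleen and 1876 to 1908 TPM in lymph node. The order of organs was that of summed Hspa1a and Hspa1b except that blood stood above spleen. The steps differed, since bone marrow was near liver for the immediate early genes, while for the HSP70 pair liver was 8.60 times bone marrow. The AP-1 gene Fos was at 2198 TPM in bone marrow, 844 TPM in blood, 486 TPM in lung, 369 TPM in liver, 134 TPM in spleen and 48.7 TPM in lymph node. Fosb was likewise highest in bone marrow, at 362 TPM against 90.9 TPM in liver and 67.9 TPM in blood. Atf3, a stress-induced transcription factor, was highest in blood, at 84.3 TPM against 53.1 TPM in liver and 0.66 TPM in lymph node, and Ier3 was at 25.4 TPM in bone marrow and 11.3 TPM in liver. Liver was thus not the highest organ for these 4 genes, those with the widest range in the list. Over the whole list, however, 7 of the 17 genes had their highest mean in liver. Junb was among them, at 2490 TPM in liver, 1609 TPM in lung and 1559 TPM in bone marrow. The share of all genes with their highest mean in liver is not given here. Cell preparation is not described in the labels, and its part in either set of genes was not tested.

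**Figure D4:**
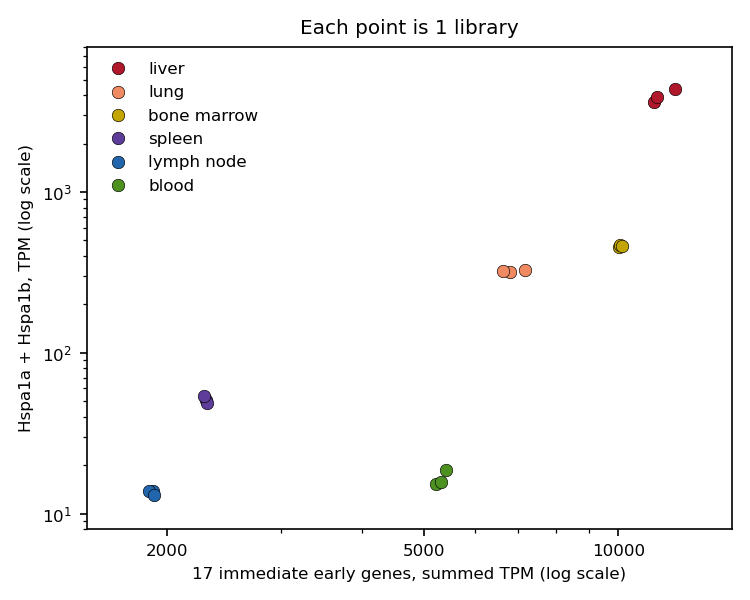
Summed TPM of the 17 immediate early genes (x axis, log scale) against summed TPM of Hspa1a and Hspa1b (y axis, log scale); each point is a library, coloured by organ. Liver lies at the top right, and blood has more immediate early transcripts than spleen (5209 to 5414 against 2279 to 2306 TPM) with fewer Hspa1a and Hspa1b transcripts.

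Across the 18 libraries, which fall into 6 organs with close replicates, the 10 genes were alike to different degrees. Pearson's r of log2(TPM + 1), given as a description over points that share organs and libraries, was 0.98 between Hspa1a and Hspa1b, 0.96 between Hspa1a and Dnajb1, 0.92 between Hspa1a and Hsp90aa1 and 0.91 between Dnaja1 and Hsp90aa1. It was 0.83 between Hsp90ab1 and Hspd1, 0.72 between Hspa8 and Hspd1 and 0.69 between Hspe1 and Hspd1. The lowest values were those of Hspd1 with Dnaja1 (0.02), Hsp90aa1 (0.06) and Hspa1a (0.09). Spearman's rho was lower where liver alone set the value, as for Hspa1a and Hsph1 with r of 0.70 and rho of 0.20. Hspa8 had r of 0.86 with Hsph1, 0.70 with Dnajb1, 0.60 with Hspa1b and 0.58 with Hspe1, so Pearson's r drew no clear division. By rho, Hspa1a, Hspa1b, Dnajb1 and Hsp90aa1 had 0.76 to 0.92 among themselves. Hsph1, Hspa8, Hsp90ab1, Hspe1 and Hspd1 had 0.54 to 0.89 among themselves, and pairs across these sets had -0.05 to 0.49. Dnaja1 lay between them, with rho of 0.60 with Hsp90aa1 and 0.66 with Hsph1.

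Among 9411 other genes averaging 10 TPM or more in some organ, the pattern most like summed Hspa1a and Hspa1b was that of S100a10 (r = 0.98 over 18 libraries), followed by Lars2 (0.96), Phlda1 (0.96), Cpne7 (0.95) and Cenpl (0.95). S100a10, a partner of annexin A2, was at 1484 TPM in liver, 1049 TPM in bone marrow, 999 TPM in lung, 851 TPM in spleen, 652 TPM in lymph node and 589 TPM in blood. Phlda1 was at 78.2 TPM in liver, 34.7 TPM in bone marrow, 25.6 TPM in lung and at most 9.63 TPM elsewhere. The mean of the other 8 genes, each scaled to unit SD, was most like Tnf (r = 0.97), Gimap9 (0.94), Igfbp7 (0.92), Rgs16 (0.92) and Lif (0.91). The cytokine gene Tnf was at 79.0 TPM in liver, 30.1 TPM in bone marrow and 10.7 TPM in blood. Rgs16, a regulator of G protein signalling, was at 169 TPM in liver, 39.3 TPM in lung and 1.56 TPM in blood. Ranked by Spearman's rho, 1 of the 5 genes nearest the HSP70 pair, Lars2, stayed among the first 5, and none of the 5 nearest the other 8 did.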

How the data were processed

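The authors deposited 1 table of TPM values per library, for 55487 Ensembl gene IDs. STAR, RSEM and mm10 are named in the submitters' processing notes, with no role, and their versions, the annotation and the use of strand in counting are not given in the sources used here. Per the labels' protocols, polyA RNA went through a directional library kit. TPM is a share of the library's RNA and keeps no depth, so the depth is unknown and no counting interval is given. Between 14314 and 19797 genes were above 0 per library, and no pair of tables was identical.

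From these values, gene symbols and positions were taken from GENCODE M21 (55141 IDs matched), and promoters from RefSeq GRCm38.p6, the same build as mm10. Differences were computed with limma 3.58.1 in R 4.3.3 on log2(TPM + 1), a scale that understates the change of low genes. All 18 libraries entered one model with a mean per organ and no covariate (eBayes, trend and robust). The 16694 genes averaging 1 TPM or more in some organ were tested, with Benjamini-Hochberg adjustment over all of them and a threshold of 0.05. The procedure was tested on simulated data.

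The 10 genes and all gene lists were chosen with earlier results of these data known. Genes named from a list are the 4 with the widest range of organ means among those called by the F test and with a mean of 10 TPM or more in some organ, and all heat shock factors. One gene that this rule names is not reported here. The nearest genes are the 5 with the highest Pearson correlation. The design provided for counts or normalized values, and the form for normalized values was used. Alternatives were 2 other pseudocounts (0.1 and 5), no filter and a filter of 5 TPM, trimmed-mean (TMM) factors, scaling to 20 general T cell genes, removal of abundant RNA classes, library weights, a replicate block, and leaving out each of the 18 libraries in turn. The count of library pairs with a shared replicate number whose deviations correlated above 0.1 was 0 of 45.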

Additional observations from a re-analysis of the deposited data

How the results depend on the processing

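The number of the 84 network genes called was within 1.5 times its value under the pseudocounts, both filters, TMM factors, removal of abundant RNA and the replicate block, which gave 42 against 43 for liver against spleen. This number adds higher and lower calls and does not show a change of direction. For liver against bone marrow, 12 higher and 26 lower became 26 and 10 with TMM factors and 23 and 12 with abundant RNA removed. Deviations from the organ mean of same-numbered libraries correlated between -0.03 and 0.03 in 45 pairs, so no shared deviation was seen. Noise of single libraries can hide such a link, so this cannot tell whether same-numbered libraries came from the same animals. Library weights gave 28 for liver against spleen (43 in the analysis as reported), 19 for lung (37), 25 for bone marrow (38) and 61 for blood against bone marrow (39). The T cell scale gave 68 for liver against blood (32), 67 for blood against lymph node (42) and 62 for blood against lung (37). Leaving out 1 library gave 25 to 41 for liver against bone marrow, the 25 without bone marrow replicate 2 or 3, and 34 to 48 for liver against spleen. Among the liver differences of the 10 genes and of the list genes reported here, those that reversed past the threshold did so on the T cell scale. Hspd1 became -0.24 against bone marrow (0.08) and -0.15 against blood (0.69). Against blood, Dnajb6 and Hspa4 became -0.33 (0.50), Cct6a -0.13, Cct3 -0.70, Trap1 -0.76, Clpp -0.46, Hsf2 -0.26, Hsf1 -0.50 and Fosb -0.42. The cause was not tested. For the liver differences of the 10 genes, 5 values under alternatives did not keep direction and side of the threshold. The other 1355 kept both or stayed uncalled with values near zero. Most fits without 1 library remove none from the organs compared, which leaves that difference unchanged, so the 1355 does not measure stability. As the genes were chosen on these levels, both counts are a description only. Besides the Hspd1 reversals, Hsp90ab1 against bone marrow fell to 0.09 on the T cell scale and Hspe1 against spleen rose to 0.34 without liver replicate 1. Hspd1 against bone marrow was 0.25 with TMM factors. Liver and lung libraries had the lowest weights (0.23 to 0.41). Without depth, the precision of low levels is unknown.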

Other observations

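HSP90 works with co-chaperones, and several of them, chosen here after their values were seen, did not have the liver level of Hsp90aa1. Stip1, which links HSP70 to HSP90, was at 166 TPM in lymph node, 150 TPM in spleen, 121 TPM in bone marrow, 101 TPM in liver, 88.0 TPM in blood and 55.6 TPM in lung. Ahsa1, the activator of the HSP90 ATPase, was at 172 TPM in spleen, 162 TPM in lymph node, 133 TPM in liver and 82.6 TPM in lung. Fkbp4, the immunophilin of steroid receptor complexes, was at 155 TPM in spleen, 145 TPM in lymph node, 106 TPM in liver and 71.5 TPM in lung. All 3 were lower in liver than in spleen (limma log2 differences of -0.57, -0.37 and -0.55) and higher in liver than in lung (0.85, 0.68 and 0.56). In lung these co-chaperones were at their lowest while Hsp90aa1 was at its second highest level. They do not stand for co-chaperones in general. Of the 26 cytosolic co-chaperones, 6 had their highest mean in lung, Unc45a among them, and 7 had their lowest mean there.

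The HSP70 of the endoplasmic reticulum, Hspa5, also chosen after its values were seen, was at 621 TPM in liver, 600 TPM in lung, 510 TPM in bone marrow, 436 TPM in spleen, 370 TPM in lymph node and 353 TPM in blood. The mitochondrial HSP70, Hspa9, was at 109 TPM in lymph node and in lung, 94.2 TPM in spleen, 89.6 TPM in bone marrow, 74.6 TPM in liver and 71.1 TPM in blood. Of the HSP70 genes of 3 compartments, the cytosolic inducible pair therefore had the widest range between organs, and the mitochondrial one was lower in liver than in spleen by 0.34 on the log2 scale.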
